A study of Mus musculus with 32 samples.

Results

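The genes described here make, carry and break down dopamine, and several of their proteins are the direct targets of methamphetamine (MA). They are *Th*, *Ddc*, *Slc6a3*, *Slc18a2*, *Maoa* and *Maob*, 6 of the 23420 genes with a row in the count tables. They were chosen by function and by name. All 6 were found in every table, and 5 of them passed the filter on low counts that left 15589 genes for testing. *Slc6a3* fell below that filter and was given its value from the fit without a filter.

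Striatal RNA was sequenced from 16 naïve mice aged about 50 days by the labels. The 8 Line 4a mice (B6.D2 congenics) carry, on a C57BL/6J (B6) background and in heterozygous form, a segment of chromosome 11 from DBA/2J (D2), and the 8 B6 mice are their littermates without it. No mouse had received MA, so every value is a basal level. The tissue was a 3 mm punch of striatum by the labels, pooled from both hemispheres, which holds many cell types, and fewer cells of a type cannot be told apart from less RNA per cell in such a sample. The study used Line 4a to map a locus for sensitivity to MA, and the comparison asks whether the genes on which MA acts differ at baseline in these mice.

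Dopamine is made from tyrosine by tyrosine hydroxylase (TH, from *Th*), the rate-limiting enzyme, and by aromatic amino acid decarboxylase (from *Ddc*). The vesicular monoamine transporter VMAT2 (from *Slc18a2*) packs it into vesicles, the plasma membrane transporter DAT (from *Slc6a3*) takes it back up after release, and the monoamine oxidases of the outer mitochondrial membrane (from *Maoa* and *Maob*) degrade it. MA enters terminals through DAT, acts on VMAT2 to release vesicular dopamine into the cytosol, drives DAT to run in reverse and inhibits monoamine oxidase. The cell bodies that make most of the dopamine of the dorsal striatum lie in the midbrain, and only their axons reach the striatum. Striatal RNA therefore samples the dopamine neurons poorly, while monoamine oxidase is also made by cells that reside in the striatum.

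In the mouse genome (mm10, positions from RefSeq on GRCm38.p6) *Th* lies at chr7:142892779-142899995, *Slc6a3* at chr13:73536128-73578672 and *Slc18a2* at chr19:59260878-59296012. *Ddc*, at chr11:11814101-11898144, shares its chromosome with the congenic segment but lies outside it, nearer to the centromere. *Maoa* (chrX:16619698-16687812) and *Maob* (chrX:16709281-16817366) are neighbours on the X chromosome that face each other end to end, with 21468 bp between them. In the mm9 GENCODE annotation none of the 6 genes had an exon base in common with another gene.

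RefSeq gave a window around a start site, from 250 bases before to 50 bases after it, for 5 of the 6 genes, and 2 such windows for *Ddc*. Each was searched on both strands for the cyclic AMP response element (TGACGTCA), the Nr4a binding element NBRE (AAAGGTCA) and the E box CACGTG. The letters of the cyclic AMP response element were present in the windows of *Th* and *Slc18a2*, the gene that starts the synthesis of dopamine and the gene that packs it, and in 1.79% of all 32851 windows. NBRE letters were found on the opposite strand of 1 *Ddc* window and in 1.51% of all windows. These 3 stretches are shown, from 120 bases before to 30 bases after the start site and written along the strand of the gene, with the matched letters in capitals.
Th, chr7:142899966-142900115, minus strand: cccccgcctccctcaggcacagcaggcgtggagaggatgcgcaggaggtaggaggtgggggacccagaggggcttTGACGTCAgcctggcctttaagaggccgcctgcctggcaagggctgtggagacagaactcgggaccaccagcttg
Slc18a2, chr19:59260758-59260907, plus strand: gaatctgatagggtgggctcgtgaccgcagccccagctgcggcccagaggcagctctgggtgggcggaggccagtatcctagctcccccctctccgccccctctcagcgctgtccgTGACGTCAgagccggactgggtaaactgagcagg
Ddc, chr11:11898115-11898264, minus strand: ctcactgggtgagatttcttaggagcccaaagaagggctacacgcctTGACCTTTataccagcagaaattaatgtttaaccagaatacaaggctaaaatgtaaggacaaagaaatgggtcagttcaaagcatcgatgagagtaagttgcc
The element began 45 bases before the start site in *Th* and 4 bases before it in *Slc18a2*, where it runs across the start. The *Ddc* match began 73 bases before the start site, and the other *Ddc* window held none of the 3 motifs. The *Slc6a3* window, chr13:73536497-73536796, lies inside the span of the gene given above. It had a CACGTG beginning 197 bases before the start site of that window. Anywhere in the window, 7.15% of all windows held these letters, and *Maoa* held none of the 3 motifs. These matches describe letters in these windows, not bound sites.

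Each library held between 19032826 and 33748353 reads counted on genes (24912413 to 32085311 in Line 4a). For 15 of the 16 mice the counts of 2 lanes were summed, and for B6 mouse 7 only 1 lane was analysed here. Levels are given as CPM, the count of a gene relative to the TMM-scaled total of reads on genes. The library of Line 4a mouse 1 stood apart. In it, 27.3% of the reads had more than 1 alignment, against 19.5% to 21.4% in the other 15 mice, and genes with short exons were high while genes with long exons were low. Its median log2 deviation from the other Line 4a mice was 0.48 for 2799 genes under 2000 bp of exon and -0.45 for 1516 genes of 8000 bp or more, and its Spearman correlation of deviation with exon length across 14490 genes was -0.56, against -0.16 to 0.39 in the other mice. Results that rest on this mouse are given with and without it.

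Cells of the striatum were well represented. *Ppp1r1b*, which encodes the phosphoprotein DARPP-32 of striatal projection neurons, averaged 1344 CPM, and the dopamine receptor gene *Drd1a* averaged 241 CPM. Of the 17 markers of midbrain dopamine neurons, 8 did not pass the filter. Among these, *Foxa2* had 0 counts in all 16 mice, which allows at most 0.00646 CPM, *Pitx3* had 0 to 2 counts per mouse, and *Slc6a3* had 2 to 9. The other 9 markers passed it, among them *Aldh1a1* at 67.1 CPM, *Ret* at 14.4 CPM, *Slc10a4* at 13.9 CPM, *Dlk1* at 9.51 CPM and *En2* at 1.91 CPM beside *Th*, *Ddc* and *Slc18a2*. Intervals and floors of this kind cover counting error only.

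Between genotypes, none of the 6 genes differed beyond the spread between mice. By edgeR's quasi-likelihood test, 0 of the 5 genes that passed the filter reached an FDR of 5%, which 0.00641% of all genes tested did, and 0 had an unadjusted p under 0.05, which 4.86% of all genes tested had with a higher and 5.14% with a lower level in Line 4a. DESeq2 and edgeR's likelihood ratio test also gave 0 and 0. Fitted folds of the 5 genes lay between 0.977 and 1.06, and the median log2 fold change of all genes was 0.01. The sources used here do not say which of these mice shared a litter, and p-values measure the spread between these mice.

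**Figure D1:**
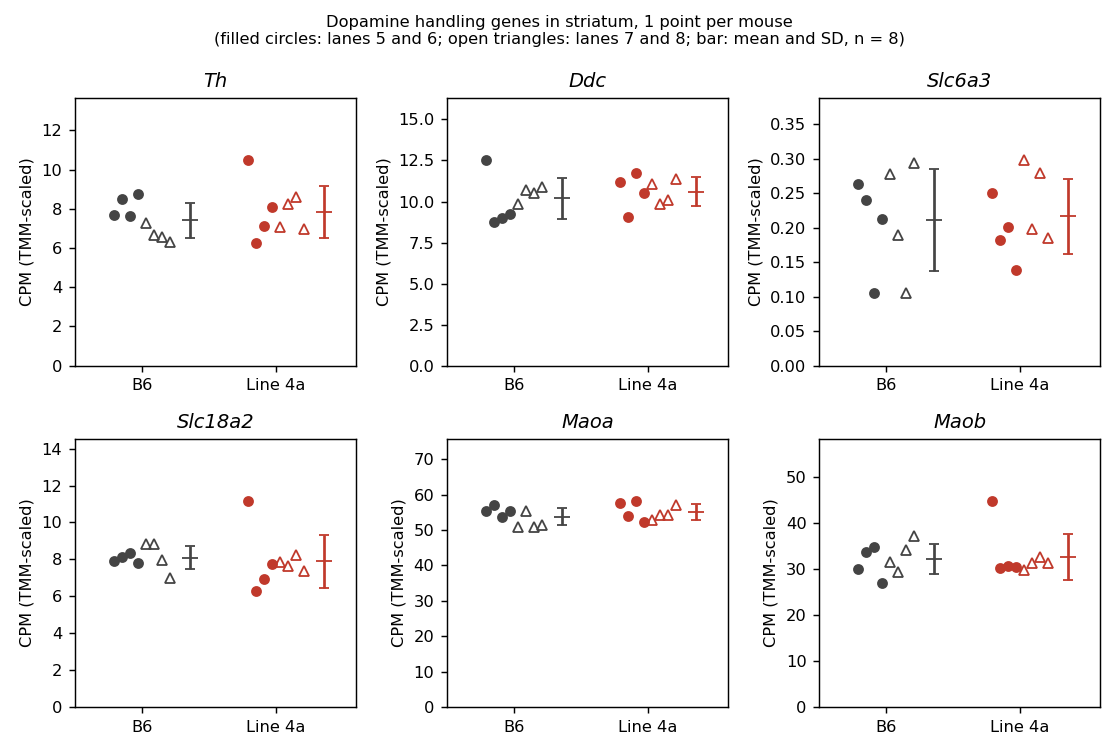
CPM of each gene on the vertical axis, which starts at 0, for 8 B6 and 8 Line 4a mice, with filled circles for mice of lanes 5 and 6, open triangles for lanes 7 and 8, and a bar for the mean and SD. The genotypes overlap in all 6 panels, and Line 4a mouse 1, the first filled circle of its group, is the highest of all mice for *Th* (10.5 CPM), *Slc18a2* (11.2 CPM) and *Maob* (44.7 CPM).

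*Th*, which sets the rate of dopamine synthesis, ranged in B6 mice from 6.29 to 8.74 CPM with a median of 7.45, and in Line 4a mice from 6.24 to 10.5 CPM with a median of 7.61. Most Line 4a mice lay inside the B6 range, 6 of 8, and 4 of 8 lay above the B6 median. Means were 7.42 ± 0.895 CPM in B6 and 7.86 ± 1.32 CPM in Line 4a (SD, n = 8 each). The log2 fold change was 0.08 (SE 0.10), which is a fold of 1.06 with a 95% interval of 0.913 to 1.22. In edgeR's quasi-likelihood test its adjusted p was 0.804, and the exact two-sided permutation p of the 16 mice was 0.470. Without Line 4a mouse 1 the log2 fold change of *Th* was 0.0054.

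The 4 B6 mice of lanes 5 and 6 had 7.63 to 8.74 CPM of *Th* and the 4 B6 mice of lanes 7 and 8 had 6.29 to 7.27 CPM, with no overlap. In Line 4a the same lane groups overlapped, at 6.24 to 10.5 CPM and 6.98 to 8.61 CPM. The genotype difference in *Th* was -0.02 on the log2 scale among mice of lanes 5 and 6 and 0.20 among mice of lanes 7 and 8. The difference between these values, 0.23 (SE 0.19), did not pass edgeR's quasi-likelihood test (p = 0.244, adjusted p = 0.950). The lane pair is as the labels give it, and each pair held 4 mice of each genotype.

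*Ddc*, the decarboxylase that completes the synthesis, ranged from 8.77 to 12.5 CPM in B6 with a median of 10.2, and from 9.08 to 11.7 CPM in Line 4a with a median of 10.8. Every Line 4a value fell inside the B6 range, since B6 mouse 1 had the highest level of all mice and B6 mouse 2 the lowest. The fold was 1.04 with a 95% interval of 0.930 to 1.16, the log2 fold change was 0.06 (SE 0.08), and edgeR's quasi-likelihood test gave an adjusted p of 0.819 (exact permutation p = 0.453). Line 4a mouse 1, at 11.2 CPM, was close to the other Line 4a mice for this gene.

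*Slc18a2*, whose product VMAT2 is the vesicular target of MA, was the only one of the 5 tested genes with a lower fitted value in Line 4a. It ranged from 6.97 to 8.86 CPM in B6 with a median of 8.04, and from 6.27 to 11.2 CPM in Line 4a with a median of 7.68. In Line 4a 6 of 8 mice lay below the B6 median, while mouse 1 lay above every B6 mouse. The means were 8.09 ± 0.605 CPM and 7.90 ± 1.45 CPM (SD, n = 8 each), and the Line 4a mean fell to 7.43 ± 0.647 CPM over the other 7 mice. The fold was 0.977 with a 95% interval of 0.851 to 1.12. The log2 fold change was -0.03 (SE 0.09) with an adjusted p of 0.921 by edgeR's quasi-likelihood test (exact permutation p = 0.770). Without Line 4a mouse 1 it was -0.12 (SE 0.07, p = 0.0787, adjusted p = 0.416 by the same edgeR test).

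*Slc6a3*, whose product DAT carries MA into the terminal, was close to the limit of detection. Between 2 and 9 reads were counted per mouse, with a sum of 50 in the B6 mice and 51 in the Line 4a mice. The level over each group was 0.218 CPM, with an exact Poisson 95% interval of 0.162 to 0.287 in B6 and of 0.162 to 0.286 in Line 4a. The variance of the 16 counts was 0.754 times their mean, so the mice varied no more than counting alone would give. Without a filter, the fold was 1.00 with a 95% interval of 0.700 to 1.44 and an adjusted p of 0.997 by edgeR's quasi-likelihood test (exact permutation p = 0.863). At this depth a difference of the size of the intervals found for *Th* or *Ddc* was not detectable for *Slc6a3*.

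*Maoa*, the oxidase with a preference for serotonin and noradrenaline that also degrades dopamine, had the narrowest interval of the 6 genes. It ranged from 50.8 to 57.1 CPM in B6 with a median of 54.5, and from 52.3 to 58.2 CPM in Line 4a with a median of 54.3. Means were 53.8 ± 2.46 CPM and 55.1 ± 2.23 CPM (SD, n = 8 each). The fold was 1.02 with a 95% interval of 0.967 to 1.08. The log2 fold change was 0.03 (SE 0.04), with an adjusted p of 0.786 by edgeR's quasi-likelihood test (exact permutation p = 0.279).

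*Maob*, the oxidase abundant in astrocytes and serotonin neurons, ranged from 27.0 to 37.1 CPM in B6 with a median of 32.5, and from 29.8 to 44.7 CPM in Line 4a with a median of 30.9. In Line 4a 7 of 8 mice lay inside the B6 range and only 2 of 8 lay above the B6 median, and mouse 1 lay above every B6 mouse. The fold was 1.01 with a 95% interval of 0.897 to 1.15. The log2 fold change was 0.02 (SE 0.08) with an adjusted p of 0.949 by edgeR's quasi-likelihood test (exact permutation p = 0.875), and it turned to -0.06 without Line 4a mouse 1. Both oxidase genes lie on the X chromosome. *Xist*, the RNA of the inactive X chromosome, exceeded 100 CPM in 4 of 8 B6 mice and 3 of 8 Line 4a mice. The paper states the same number of females in both genotypes, while the labels give no sex. Sex was not in the model, and the part of *Xist* or of sex in the spread of either gene was not tested.

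**Figure D2:**
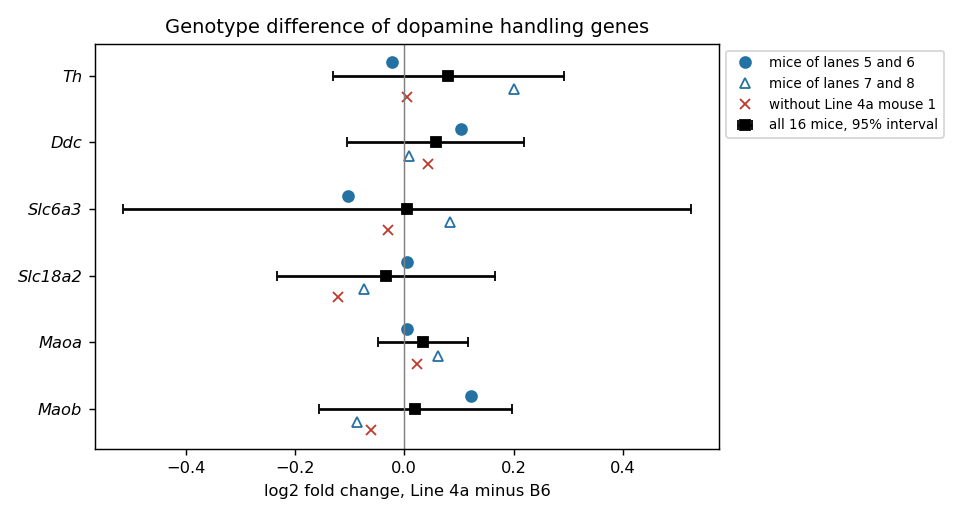
Log2 fold change of Line 4a minus B6 for each gene, with black squares and 95% intervals for all 16 mice, blue symbols for each lane pair and red crosses for the fit without Line 4a mouse 1. Every interval spans 0, the interval of *Maoa* is the narrowest (fold 0.967 to 1.08) and that of *Slc6a3* the widest (fold 0.700 to 1.44).

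Line 4a mouse 1 was the highest of all mice for 3 of the genes. Its level was 1.40 times the mean of the other 7 Line 4a mice for *Th*, 1.50 times for *Slc18a2* and 1.45 times for *Maob*, whose own CV among those 7 mice was 2.95%. For *Ddc* the ratio was 1.06 and for *Maoa* 1.05. The exon length annotated for each gene was 2364 bp for *Th*, 2789 bp for *Maob*, 3803 bp for *Slc18a2*, 4167 bp for *Maoa* and 4354 bp for *Ddc*. *Slc6a3*, at 3456 bp and few reads, had a ratio of 1.18. In this library the median log2 deviation of genes of 2000 to 4000 bp was 0.14, where *Th* had 0.50, *Maob* 0.54 and *Slc18a2* 0.59. For genes of 4000 to 8000 bp it was -0.17, where *Maoa* had 0.07 and *Ddc* 0.09. The part of exon length in these values was not tested for single genes.

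Per length of exon, the order of the levels was the same in the means of both genotypes. In CPM per kilobase of exon, levels were 13.1 ± 0.567 for *Maoa*, 11.6 ± 1.47 for *Maob*, 3.23 ± 0.472 for *Th*, 2.39 ± 0.245 for *Ddc*, 2.10 ± 0.283 for *Slc18a2* and 0.0619 ± 0.0181 for *Slc6a3* (SD, n = 16 mice). The monoamine oxidases, which striatal cells make themselves, thus stood above the genes of dopamine synthesis and transport. *Maob* was higher than *Th* in 16 of 16 mice, by 3.60-fold on average, *Th* was higher than *Ddc* in 16 of 16 mice, and *Slc18a2* exceeded *Slc6a3* in 16 of 16 mice by 35.3-fold. Neighbours that did not keep their order were *Maoa* and *Maob*, with *Maoa* higher in 13 of 16 mice, and *Ddc* and *Slc18a2*, with *Ddc* higher in 12 of 16. Of the 2 transporter genes, *Slc18a2* had 152 to 356 reads per mouse where *Slc6a3* had 2 to 9, and the cells of origin were not tested.

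The ratios of one gene to another within a mouse did not differ between genotypes either. Of 4 ratios tested, *Th* to *Slc18a2* had the smallest exact two-sided permutation p, 0.117 (adjusted p = 0.466). For *Ddc* to *Slc18a2* it was 0.329, for *Maoa* to *Maob* 0.822 and for *Th* to *Ddc* 0.927.

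Spread between mice differed among the genes and set the width of the intervals. The SD between mice within genotype was 0.06 on the log2 scale for *Maoa*, and 6.45% of 2511 genes of like level had a smaller SD. For *Maob* it was 0.17, with 72.1% of genes of like level below it. For *Th* it was 0.20, for *Slc18a2* 0.19 and for *Ddc* 0.15. Counting error of the summed reads, on the same scale, was 0.10 for *Th* and *Slc18a2*, 0.08 for *Ddc*, 0.05 for *Maob* and 0.04 for *Maoa*. In *Ddc* the SD of the difference between the 2 lanes of a mouse was 0.17. That difference sets 2 single lanes against each other, so it cannot be read on the scale of the SD between summed mice.

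Across the 16 mice, with genotype means removed, 10 pairs of the 5 genes were compared on log2 CPM. *Th* and *Slc18a2* had the highest correlation, with Pearson's r = 0.71 (permutation p = 0.00212, adjusted p = 0.0212) and Spearman's rho = 0.45 (permutation p = 0.0802, adjusted p = 0.542). Without Line 4a mouse 1 alone r was 0.51. Without the 2 mice farthest from the median of *Th*, which were Line 4a mice 1 and 2, r was 0.30, so the size of r depends on those mice. Within lanes r was 0.87 for lanes 5 and 6, which hold both of these mice, and 0.48 for lanes 7 and 8.

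Next came *Slc18a2* and *Maob* (r = 0.55, permutation p = 0.0451, adjusted p = 0.226, rho = 0.23), which turned to r = -0.20 without Line 4a mice 1 and 2. *Th* and *Ddc*, the consecutive enzymes of dopamine synthesis, had r = -0.15 (permutation p = 0.584, adjusted p = 0.847, rho = -0.21), which was -0.30 without Line 4a mouse 1 and -0.61 without Line 4a mice 1 and 2. Their r was 0.13 among mice of lanes 5 and 6 and -0.94 among the 8 mice of lanes 7 and 8. *Maoa* and *Maob*, neighbours on the chromosome, had r = 0.03 (permutation p = 0.922, adjusted p = 0.922).

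**Figure D3:**
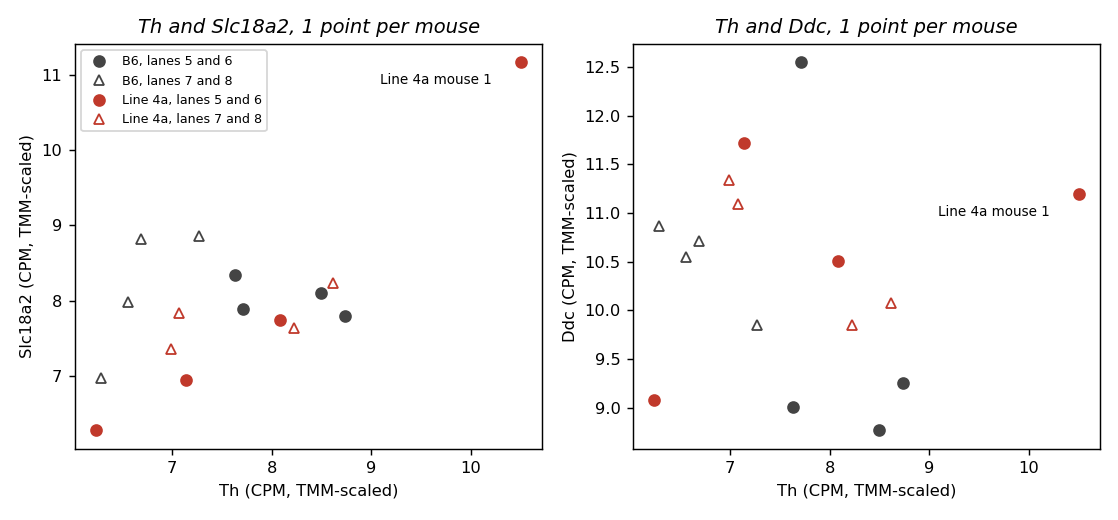
CPM of *Slc18a2* (left) and of *Ddc* (right) against CPM of *Th*, 1 point per mouse, in grey for B6 and red for Line 4a, filled for lanes 5 and 6 and open for lanes 7 and 8. Line 4a mouse 1 lies alone at the upper right of the left panel (10.5 and 11.2 CPM), and r there is 0.71 with it and 0.51 without it.

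Among all genes tested, those whose levels followed each gene most closely over the 16 mice, with genotype means removed, are given by Pearson's r as a description, since the mice share library preparation and depth. For *Maob* they were *Hnrnpc* (r = 0.95, and 0.89 without Line 4a mouse 1), *Impa1*, *Cwc15*, *Cetn2* and *Arpc5*. *Slc18a2* was followed by *4933426D04Rik* (r = 0.91, and 0.77 without that mouse), *Rbpms2*, *Mpi*, *Ppic* and *Dram2*. The genes nearest to *Th* were *Gfer* (r = 0.84), *4933426D04Rik*, *Hebp2*, *Tmem91* and *Canx*. For *Maoa* they were *Pxk* (r = 0.83), *Stk39*, *1700018L02Rik*, *Gm9199* and *Stk3*, and for *Ddc* *Pld6* (r = 0.77), *Nkd1*, *Tprn*, *Paqr5* and *Fa2h*. *Nr4a2*, which encodes the nuclear receptor NURR1 that is needed for the development of midbrain dopamine neurons, was added after its values had been seen. Its r with the 5 genes ran from -0.16 to 0.07 (permutation test, lowest p = 0.551, adjusted p = 0.836 for each of 5).

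Other genes of dopamine handling were taken from 5 lists of 52 genes in all, of which 42 were tested and 10 fell under the filter. None reached an FDR of 5% by edgeR's quasi-likelihood test, and the lowest adjusted p was 0.400. At an unadjusted p under 0.05 there were 4 with higher levels in Line 4a, as 4.86% of all genes tested had, and 2 with lower levels, as 5.14% had. Together they were 14.3% of the 42, where 1559 of all 15589 genes tested had such a p in either direction. Without Line 4a mouse 1 the number was 7 of 42, all of them in the list of proteins that bind MA or regulate DAT. Over all genes in that fit, 2087 of 15624 had such a p in either direction. The median log2 fold change of the 42 genes was 0.04 with all mice (28 higher, 14 lower), beside 0.01 over all genes. Without Line 4a mouse 1 it was 0.0035 (22 higher, 20 lower), beside -0.0009 over all genes.

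Synthesis of dopamine also needs tetrahydrobiopterin, the cofactor of TH, and uptake of its amino acid precursors. All 8 tested genes of this list had higher means in Line 4a, with a median log2 fold change of 0.11, and 54.9% of all genes tested had higher means. Without Line 4a mouse 1, 6 of the 8 had higher means and the median was 0.03, beside a median of -0.0009 over all genes. *Qdpr*, which regenerates the cofactor, was at the highest level of the list and had an unadjusted p under 0.05. It ranged from 283 to 360 CPM in B6 (median 308) and from 293 to 511 CPM in Line 4a (median 349), with a log2 fold change of 0.20 (SE 0.10, p = 0.0472, adjusted p = 0.493 by edgeR). Line 4a mouse 1 held the 511 CPM, and without it the value was 0.12 (p = 0.110). *Gchfr*, the regulator of the first step of cofactor synthesis, was under the filter at 1 to 8 reads per mouse.

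In the list of monoamine transport and packaging, 2 of 5 tested genes had an unadjusted p under 0.05. *Slc18a3*, the vesicular transporter of acetylcholine, had a log2 fold change of 0.28 (SE 0.12, p = 0.0301, adjusted p = 0.463 by edgeR) with 8.37 to 12.3 CPM in B6 and 9.38 to 17.7 CPM in Line 4a. *Slc10a4*, a vesicular protein of cholinergic and monoaminergic neurons, had 0.23 (SE 0.10, p = 0.0383, adjusted p = 0.476 by edgeR) with a median of 12.5 CPM in B6 and 14.5 CPM in Line 4a, where the highest mouse had 21.3 CPM. Without Line 4a mouse 1 they had 0.18 (p = 0.0684) and 0.14 (p = 0.0866). Both genes are expressed in cholinergic neurons. In the list of 7 markers of cholinergic interneurons, which holds *Slc18a3*, 5 had an unadjusted p under 0.05 and higher levels in Line 4a. With all mice 4.86% of all genes tested had so, and 0 of the 7 reached an FDR of 5%. Without Line 4a mouse 1 the number was 4, where 2087 of 15624 genes had such a p in either direction. The summed level of the list was 164 to 212 CPM in B6 and 180 to 248 CPM in Line 4a, and the part of these cells in the values of *Slc18a3* and *Slc10a4* was not tested. With a score of 13 cortical neuron markers as a covariate, the log2 fold change was 0.04 for *Slc18a3* and 0.08 for *Slc10a4*. That score itself goes with genotype, so the 2 cannot be told apart in this fit. *Sv2c*, a synaptic vesicle protein of the basal ganglia at the highest level of the list, was at 39.6 to 70.9 CPM in B6 and at 45.5 to 62.1 CPM in 7 Line 4a mice, but at 5.83 CPM in Line 4a mouse 1. *Slc6a2*, *Slc6a4*, *Slc18a1* and *Slc22a2*, the plasma membrane and vesicular carriers of other monoamine cells, were under the filter.

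Of the genes that break down monoamines beside *Maoa* and *Maob*, 0 of 9 had an unadjusted p under 0.05. Over all genes tested, 4.86% had such a p with a higher and 5.14% with a lower level in Line 4a. *Akr1a1*, an aldehyde reductase and the highest of the list, had a log2 fold change of 0.02 (SE 0.08), which turned to -0.06 without Line 4a mouse 1. *Dbh*, the enzyme that turns dopamine into noradrenaline, had 0 to 14 reads per mouse, and *Akr1b3* was listed at 0 in all mice. Reads with several alignments are not in these counts, and whether that bears on the value of *Akr1b3* was not tested.

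Proteins that bind MA or regulate DAT made up the longest list. *Taar1*, the trace amine receptor through which MA also signals, had 0 reads in all 16 mice, which allows at most 0.00646 CPM. With all mice, 10 of the 16 tested genes had lower means in Line 4a, beside 45.1% of all genes tested. Without Line 4a mouse 1, 13 had. The median log2 fold change of all genes in that fit was -0.0009, and its share of genes with lower means is not given here.

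*Stx1a*, the syntaxin that binds DAT, had a log2 fold change of -0.38 (SE 0.13, p = 0.00997, adjusted p = 0.400 by edgeR), with 81.1 to 126 CPM in B6 and 60.3 to 126 CPM in Line 4a. *Dgkz*, a diacylglycerol kinase, had -0.20 (SE 0.07, p = 0.0130, adjusted p = 0.407 by edgeR). *Gpr37*, a receptor that interacts with DAT and is abundant in oligodendrocytes, had 0.20 (SE 0.08, p = 0.0232, adjusted p = 0.445 by edgeR). These 3 kept an unadjusted p under 0.05 without Line 4a mouse 1 (0.00797, 0.0206 and 0.0380 by edgeR). In that fit further genes of the list had one, with lower levels in Line 4a. Among them were *Sncb* (-0.14, p = 0.0145), *Syngr3* (-0.13, p = 0.00433), a vesicle protein that binds DAT, and the phosphatase subunit gene *Ppp2ca* (-0.11, p = 0.0401). They are named after their values were seen, and the lowest adjusted p of these 3 in edgeR's quasi-likelihood test was 0.236. *Camk2a*, the highest of the list, had a log2 fold change of -0.10 (SE 0.08), and -0.05 without Line 4a mouse 1, its lowest mouse at 1732 CPM.

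Markers of cortical glutamatergic neurons leaned to lower levels in Line 4a in the same libraries. By edgeR's quasi-likelihood test 0 of 13 reached an FDR of 5%, and the lowest adjusted p was 0.331. All 13 had lower means in Line 4a, as 45.1% of all genes tested had. Of these, 10 had an unadjusted p under 0.05, as 5.14% of all genes tested had with a lower level. The number was also 10 without Line 4a mouse 1, where 2087 of 15624 genes had such a p in either direction. Their summed level was 864 to 1347 CPM in B6 and 634 to 1175 CPM in Line 4a. A score of these markers ran from -0.32 to 1.33 in B6 mice and from -1.35 to 0.96 in Line 4a mice. Score and genotype thus go together, and the part of cortical cells was not tested. With the score in the model, the count of all genes at an unadjusted p under 0.05 went from 1559 to 362. In that fit, the 6 other dopamine handling genes at an unadjusted p under 0.05 without the score all moved toward 0 or past it. They were picked by their p in the fit without the score, and the score goes with genotype. Their change therefore cannot be read as the part of cortical cells. Their log2 fold changes were 0.05 for *Stx1a*, -0.0087 for *Gpr37*, -0.0061 for *Dgkz*, 0.04 for *Slc18a3*, 0.08 for *Slc10a4* and 0.07 for *Qdpr*, with a lowest unadjusted p of 0.518 by edgeR's quasi-likelihood test. Those of *Th*, *Slc18a2*, *Maoa* and *Maob* kept their sign, and *Ddc* turned to -0.05 (adjusted p = 0.972 by edgeR). Without the score, the 13 markers of striatal projection neurons had 0 genes at an unadjusted p under 0.05 and a median log2 fold change of 0.03. Over all genes tested, 4.86% had such a p with a higher and 5.14% with a lower level.

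**Figure D4:**
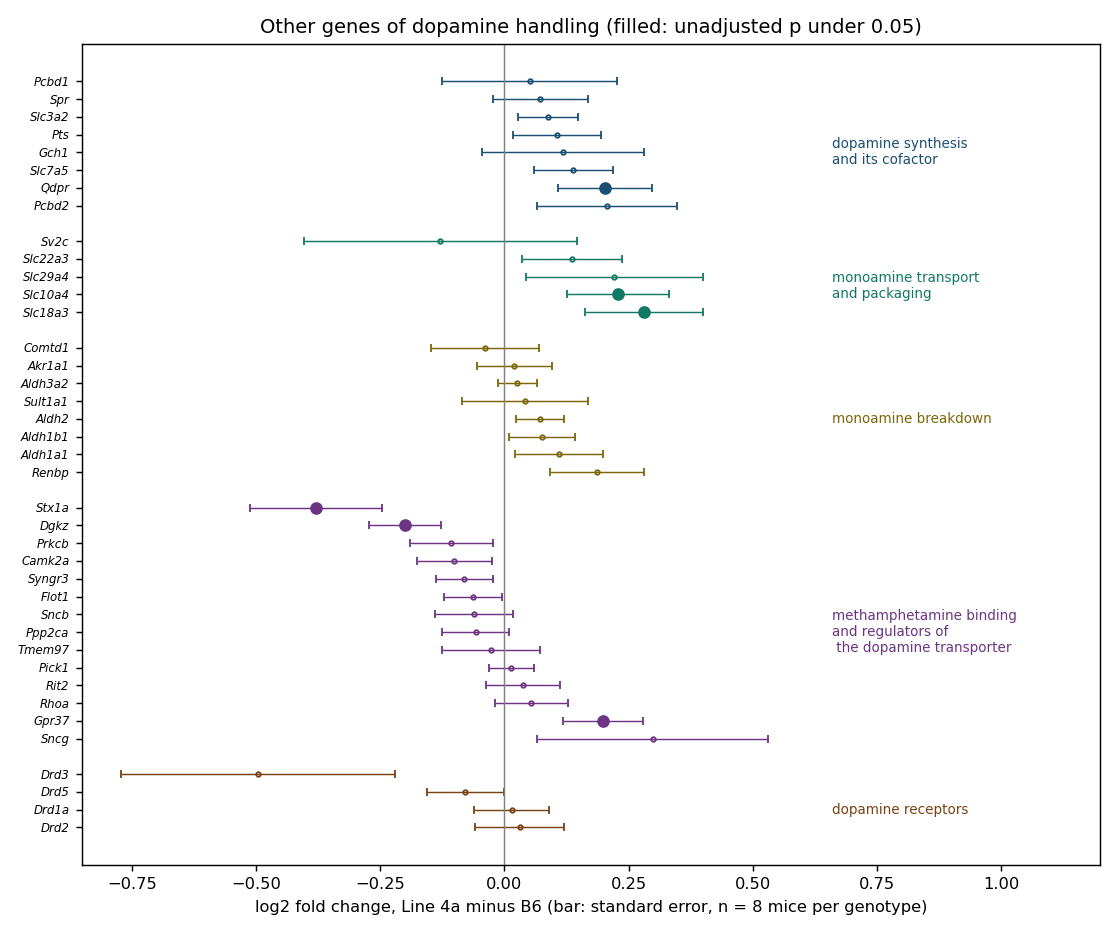
Log2 fold change of Line 4a minus B6 with its standard error for 39 of the 42 tested genes of the 5 lists, 1 row per gene and 1 colour per list, with filled points for an unadjusted p under 0.05. The 6 filled points run from -0.38 (*Stx1a*) to 0.28 (*Slc18a3*), and the 8 genes of synthesis and its cofactor lie above 0 (6 of 8 without Line 4a mouse 1).

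Dopamine receptors receive the signal in striatal neurons. Of 4 tested, 0 had an unadjusted p under 0.05, beside 4.86% of all genes tested with a higher and 5.14% with a lower level. *Drd1a*, the highest, had a log2 fold change of 0.01 (SE 0.08), and *Drd4* was under the filter at 2 to 8 reads per mouse.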

How the data were processed

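Single-end reads of striatal RNA were aligned by the authors with TopHat and bowtie2 2.2.2 to mm10 and assigned to genes by htseq-count 0.6.1p1 (union mode, strand ignored). The authors deposited raw counts per mouse and lane, which leave out reads with several alignments. The authors' own table of fold changes and p-values was not used. Here, lane counts were summed per mouse (31 files, 16 mice), filtered with filterByExpr, TMM-scaled and fitted in edgeR 4.0.16 (R 4.3.3) by quasi-likelihood without covariates, Benjamini-Hochberg over 15589 genes. The authors' model held home cage, which the labels do not give. Single genes also had exact permutation tests (scipy 1.17.1). Log2 CPM used a prior count of 0.5. Exon lengths came from an mm9 GENCODE annotation. The 6 genes and all lists were chosen with earlier results of these data known. Genes named from the lists had an unadjusted p under 0.05, the highest level of their list or a level under the filter. *Nr4a2* was named beside this rule, and some list genes, counted in the totals, are not reported here. For likeness the 5 genes with the highest r were named. Alternatives covered normalization, filter, test (DESeq2 1.42.0), lanes, replicate block, cortical score and leaving out each mouse.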

Additional observations from a re-analysis of the deposited data

Results flagged for a closer look

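In each genotype the highest and the lowest mouse of 16 genes (the 6 dopamine handling genes and 10 named list genes) were set against the other 7, and chance alone would mark about 1 in 20 of these 32 groups. A total of 7 values stood away from the rest of their group. For Line 4a mouse 1 these were *Slc18a2* at 11.2 CPM (next 8.23), *Maob* at 44.7 CPM (next 32.6), *Slc10a4* at 21.3 CPM (next 16.5) and *Akr1a1* at 332 CPM (next 233) on the high side, and *Sv2c* at 5.83 CPM (next 45.5) on the low side. For B6 mouse 8 they were *Sv2c* at 70.9 CPM (next 54.1) and *Akr1a1* at 272 CPM (next 241). Both libraries had fewer reads outside genes than the rest, 10.2% in Line 4a mouse 1 and 11.3% in B6 mouse 8 against 14.5% to 15.9% in the other 14. The part of library composition in these values was not tested.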

How the results depend on the processing

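Under every alternative, 0 of the 6 genes passed an FDR of 5% and 0 an unadjusted p under 0.05. Signs of their small log2 fold changes were less stable, and the cause was not tested. Among mice of lanes 5 and 6, *Th* had -0.023, *Slc6a3* -0.10 and *Slc18a2* 0.0049. Among mice of lanes 7 and 8, *Maob* had -0.086, *Akr1a1* -0.086 and *Drd1a* -0.099. With the cortical score, *Ddc* had -0.046, *Slc6a3* -0.0087, *Stx1a* 0.048, *Gpr37* -0.0087 and *Camk2a* 0.027. *Slc6a3* had -0.0032 in the likelihood ratio test and -0.0079 with lane pair as a term. Leaving out each mouse in turn gave *Th* 0.0054 to 0.12, *Ddc* 0.030 to 0.11, *Slc6a3* -0.094 to 0.082, *Slc18a2* -0.12 to 0.0083, *Maoa* 0.022 to 0.048 and *Maob* -0.060 to 0.049.

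Same-numbered mice had correlated deviations over 0.1 in 3 of 8 pairs (range -0.12 to 0.36), and 1 of 8 Line 4a mice correlated best with its own number. These values cannot tell whether mice of the same number shared a litter or a cage, and the main fit took them as unpaired. With the replicate block the log2 fold changes were 0.07 for *Th*, 0.06 for *Ddc*, -0.05 for *Slc18a2*, 0.03 for *Maoa* and 0.01 for *Maob*.

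Over all genes, the count at an FDR of 5% moved from 1 to 31 with DESeq2, 20 with the likelihood ratio test, 2 with lane pair as a term and 0 in either lane pair alone, with the block or with the cortical score, and to between 1 and 4 without 1 mouse (4 without Line 4a mouse 1, 3 without Line 4a mouse 6). The count at an unadjusted p under 0.05 moved from 1559 to 500 in lanes 5 and 6 and 362 with the cortical score. Among the other dopamine handling genes, for which all alternatives were chosen after seeing the data, that count moved from 6 to 1 in lanes 5 and 6, 2 with the cortical score and between 3 and 8 without 1 mouse (3 without B6 mouse 2 or B6 mouse 3). Without 1 mouse, *Sv2c* ran from -0.20 to 0.040, *Akr1a1* from -0.063 to 0.048 and *Drd1a* from -0.010 to 0.072. *Slc6a3* had no value under the stricter filter, and its few reads, not the number of mice alone, limit its precision.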
